A study of Rattus norvegicus with 4 samples.

Results

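Ion channels and transmitter receptors were examined in wild-type and Pax6 mutant rat telencephalon. The members were the probe sets with a single gene symbol whose symbol begins like those of potassium (Kcn), sodium (Scn), calcium (Cacn), hyperpolarization-activated (Hcn) or TRP channels. Ionotropic glutamate (Gri), GABA (Gabr, Gabbr), glycine (Glr), acetylcholine (Chrn, Chrm) and serotonin (Htr) receptor symbols were taken too, and the Kcnip genes were left out. The rule matched symbols only and used no measured value, though it was set with earlier results of these data known. It gave 304 probe sets of 201 genes, out of 31042 probe sets on the array that were not controls and 14217 genes with a single symbol. The members include accessory subunits, among them 9 genes of potassium and 14 of calcium channels, and Trpc4ap and Grina carry a channel or receptor name without being a pore or receptor subunit. Metabotropic glutamate receptors, whose symbols begin with Grm, do not match the rule.

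Telencephalon of wild type and of Pax6 mutant (rSey2/rSey2) Sprague-Dawley rats was dissected at E11.5, counted in embryonic days from the plug. Each genotype was measured on 2 one-colour Affymetrix arrays. The design text gives RNA of 13 telencephalons and a repeat within each genotype, but does not settle whether each array had a pool of 13 of its own, so what the 2 values of a group share is not known. The 2 arrays of each group are labelled biological replicates with no litter given, and p-values reflect how far they lie apart, which can be partly technical. The mutants are homozygous, and the lesion is not limited to a cell type.

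The telencephalon at this age is mostly dividing neuroepithelium, from which the first neurons are about to leave. Ion channels set the membrane potential and calcium entry of these progenitors, while receptors for glutamate and GABA act on them before synapses exist. Most channels and receptors of the mature cortex come on later, as neurons differentiate. Pax6 is a transcription factor of dorsal telencephalic progenitors that promotes neurogenesis and keeps ventral genes off.

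Values are the authors' GCRMA values on the log2 scale. They share a lowest value of 2.07, where no difference can be measured. The dim level was set at the 40th percentile of probe set means, 3.21, and probe sets with a mean at or above it over the 4 arrays were tested. GCRMA values of different probe sets depend on their probes, so a higher value here is a stronger signal, not a more abundant transcript. In bulk tissue, fewer cells of a type and less RNA per cell cannot be told apart.

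The members were far dimmer than the array as a whole. Of the 304 member probe sets, 32 (10.5%) reached the dim level, against 60% of all 31042 probe sets and 66.7% of the 20826 with a single symbol. These 32 belonged to 30 of the 201 genes. The median of the probe set means was 2.09 for the members and 5.35 for all probe sets. On all 4 arrays, 110 members (36.2%) lay exactly at the lowest value, against 15.9% of all probe sets. A single value repeated on all 4 arrays was found for 176 members (57.9%), against 24.8% of all probe sets. Only 5 members (1.64%) reached the median of the tested probe sets, 8.28, against 30% of all probe sets, and 2 of these 5 were Trpc4ap and Grina.

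**Figure D1:**
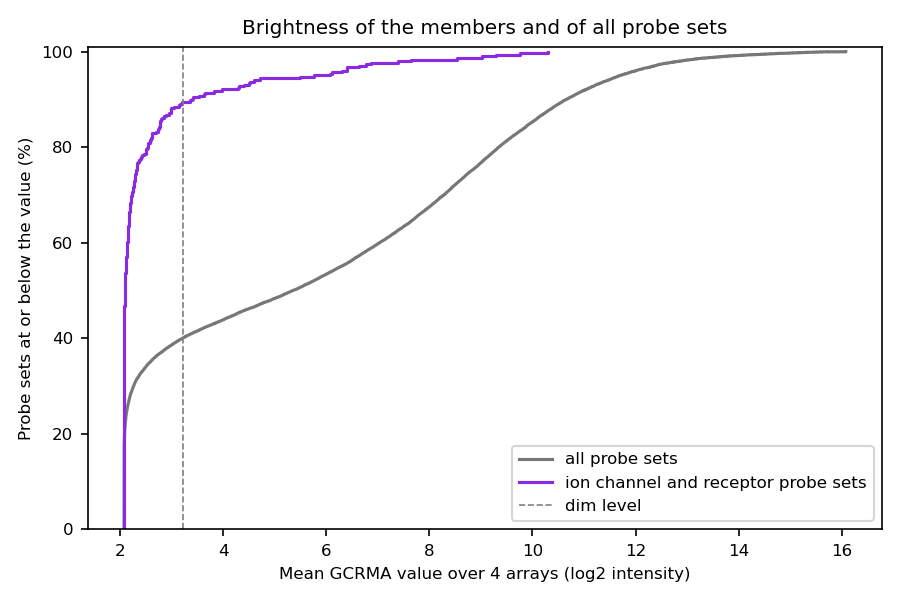
Cumulative share of probe sets (vertical axis, percent) by mean GCRMA value over 4 arrays (horizontal axis, log2 intensity), for the 304 ion channel and receptor probe sets and for all 31042 probe sets. At the dim level of 3.21 (dashed line) the member curve has passed 89.5%, and the curve of all probe sets is at 40%.

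The dim members were dim in both genotypes. Of 272 dim probe sets, 264 stayed under the dim level on every array, 8 reached it on at least 1 array, and 1 reached it on both arrays of a genotype. That probe set was Kcnh3, a voltage-gated potassium channel of the ether-a-go-go type, at 3.37 and 3.25 in wild type and 3.26 and 2.89 in the mutant. The other 7 held a single array above the level: wild-type replicate 1 for Kcna6, Cacna1c, Chrnb2, Trpv5 and Chrna1, and mutant replicate 2 for Kcnq5 and Gabrb2, which also have brighter probe sets. Of the 32 tested members, 28 were above the level on all 4 arrays, 30 on both wild-type arrays and 30 on both mutant arrays.

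Probe sets at or above the dim level were counted by family, beside a share of 10.5% over all members. Many families are small, so a count of 0 is hard to tell from that share. Among the TRP channels, cation channels with diverse gating, 6 of 20 probe sets reached the dim level, from 5 of 15 genes, with Trpm7 counted by 2 probe sets. The nicotinic acetylcholine receptor subunits had 3 of 17, the accessory subunits of calcium channels 3 of 18, and the sodium channels with their beta subunits 2 of 14. The GABA receptors had 4 of 31 and the ionotropic glutamate receptors 3 of 27. Among potassium channels the counts were 3 of 26 inward rectifiers, 2 of 16 tandem-pore channels, which pass a resting leak current, 2 of 16 accessory subunits and 2 of 49 voltage-gated channels. Of the 17 families, 6 had no tested member: the calcium channel pores (0 of 20), the serotonin receptors (0 of 22), the calcium- or sodium-activated potassium channels (0 of 9), the glycine receptors (0 of 8), the muscarinic receptors (0 of 6) and the HCN channels (0 of 3). The highest mean in these 6 families was 3.04, in a probe set of Cacna1c, an L-type calcium channel pore. The NMDA receptor subunits, which pass calcium at excitatory synapses, were all dim, with Grin2a highest at 2.99 and Grin1, the obligatory subunit, at 2.81. A dim probe set does not show that its transcript was absent.

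**Figure D2:**
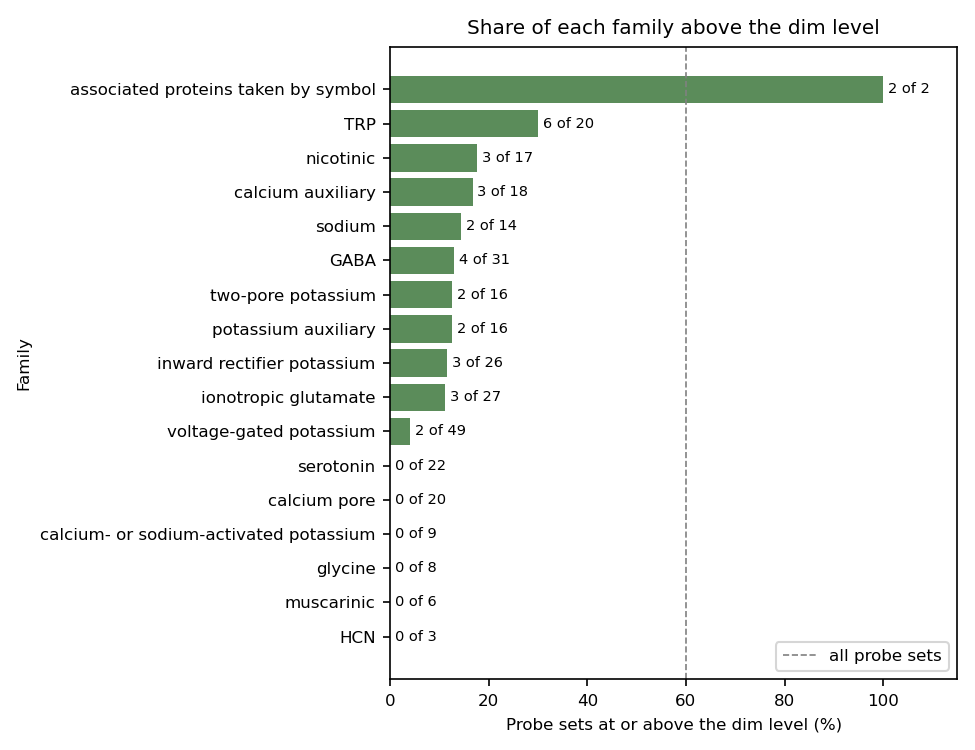
Percent of each family's probe sets with a mean at or above the dim level (bars), with counts beside them and the share over all probe sets as a dashed line at 60%. The "two-pore" row holds the tandem-pore channels. Of the channel and receptor families, TRP has the highest share (6 of 20), 6 families have none, and the 2 associated proteins taken by symbol are both above.

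Potassium channels gave a signal mainly through a few subunits. Kcne3 (1387160_at), an accessory subunit that modifies voltage-gated potassium channels, was at 7.35 and 7.26 in wild type and 8.11 and 7.82 in the mutant, so both mutant arrays were above both wild-type arrays. Kcnj14, an inward rectifier, was at 7.41 and 7.46 in wild type and 7.21 and 7.51 in the mutant, with the mutant arrays on either side of wild type. Kcnk5, an acid-sensitive tandem-pore channel, was at 6.91 and 7.15 in wild type and 6.48 and 6.89 in the mutant, a narrow separation with the mutant lower. Kcnk2 (1370342_at), a mechanosensitive tandem-pore channel, was at 4.07 and 3.96 in wild type and 4.55 and 4.63 in the mutant. Its genotypes were clearly apart, with a gap of several times the distance between replicates. Kcnmb4, the neuronal accessory subunit of the large-conductance calcium-activated channel, ran from 6.17 to 6.58 with the genotypes interleaved. Its pore subunit, Kcnma1, stayed under the dim level.

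Other potassium channel members above the dim level carried little information. Kcnh2, which encodes the delayed rectifier known from the heart rhythm, had the same value of 4.28 on all 4 arrays. Kcnj3, a G-protein-gated rectifier subunit, had 4.56 on 3 of its 4 arrays, and Kcnq5, of the M-current family, had 3.45 on 3 of its 4. Kcnj11, the pore of the ATP-sensitive channel, stayed between 3.97 and 3.98. An exactly repeated value is typical of dim probe sets here: 92.7% of those under the dim level held one, 46% of those from there to a mean of 5, 14.2% of those with a mean from 5 to 8 and 1.43% of those at 8 and above. Of the 32 tested members, 7 (21.9%) held one, 6 of them among the 15 tested members with a mean under 5 (40%), so passing the dim level does not by itself show a signal.

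The sodium and calcium channel members above the dim level were mostly accessory subunits. Scn2b, a beta subunit of sodium channels, was at 6.48 and 6.70 in wild type and 6.61 and 6.74 in the mutant, with the genotypes overlapping. Scn8a, a sodium channel pore, had the same value of 3.36 on all 4 arrays. Cacnb3, a beta subunit that brings calcium channel pores to the membrane, was at 6.53 and 6.76 in wild type and 6.53 and 7.26 in the mutant. The lowest Cacnb3 value was shared by replicate 1 of both genotypes. Cacnb2, of the same subunit family, lay between 4.38 and 4.42, and Cacng2, which carries AMPA receptors to synapses, between 4.45 and 4.60. In both genes the mutant arrays were the lower pair, by narrow margins.

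TRP channels held the strongest signals among the pores. Trpm7, a magnesium- and zinc-permeable channel fused to a kinase and found in most cells, had 2 probe sets (1398355_at and 1369059_at). The first read 10.04 and 9.31 in wild type and 10.34 and 9.35 in the mutant, with replicate 1 above replicate 2 in both genotypes. The second read 9.29 and 9.29 in wild type and 9.23 and 9.34 in the mutant, with no such gap. Trpc2, the channel of pheromone-sensing neurons, was at 8.45 and 8.49 in wild type and 8.48 and 8.73 in the mutant. The RefSeq table places the neighbouring gene Xndc1 over part of Trpc2, and the annotation does not say which of them the probe set reads. Trpc6, a receptor-operated channel, was at 4.65 and 5.22 in wild type and 4.27 and 4.69 in the mutant, which overlap. Trpc1 ran from 2.62 to 3.96 and Trpv6, a calcium-selective epithelial channel, from 4.21 to 5.002, both with replicates of wild type wider apart than the genotypes.

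Among glutamate receptors, 2 kainate receptor subunits and 1 AMPA receptor subunit were above the dim level. Grik2 (1369036_at), which forms kainate receptor channels, was at 5.02 and 5.28 in wild type and 5.90 and 5.79 in the mutant, with all mutant values above all wild-type values. Grik5, which assembles with it, was at 5.60 and 6.44 in wild type and 5.93 and 6.32 in the mutant, and the mutant pair lay inside the wild-type pair. Gria3, an AMPA receptor subunit, lay between 3.64 and 4.09 with the genotypes overlapping, while Gria1, Gria2 and Gria4 were dim. The kainate receptor subunits Grik1 and Grik3, both at 2.07 on every array, and Grik4, at 2.25 on every array, were dim too.

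GABA receptors were represented by 3 genes. Gabrb2 (1377773_at), a beta subunit of the GABA-A chloride channel, was at 5.68 and 5.75 in wild type and 6.38 and 6.65 in the mutant. The genotypes were apart by more than the distance between replicates. Gabbr1, the GABA-binding subunit of the metabotropic GABA-B receptor, had 2 probe sets above the dim level. One (1375720_at) read 6.60 and 5.88 in wild type and 6.29 and 6.48 in the mutant, and the other (1388039_a_at) 5.52 and 5.70 against 5.65 and 6.16. Both overlapped between genotypes. Its partner Gabbr2 was dim. Gabrd, an extrasynaptic subunit, ran from 3.27 to 4.05, and its probe set name ends in _s_at, which marks probes shared by several transcripts.

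Acetylcholine receptor members above the dim level were Chrnb1, Chrna3 and Chrna7. Chrnb1, known from the muscle nicotinic receptor, was at 6.33 and 6.78 in wild type and 6.18 and 6.33 in the mutant, touching at the edge. Chrna3, a subunit of autonomic ganglia, was at 3.16 and 3.36 in wild type and 3.33 and 4.69 in the mutant, so its higher mutant mean rested on replicate 2 alone. Chrna7, which forms calcium-permeable receptors on its own, ran from 3.14 to 3.77. The associated proteins Trpc4ap, an adaptor of a ubiquitin ligase, and Grina, of a family of proteins that protect from cell death, ran from 10.14 to 10.44 and from 8.84 to 9.23, with the genotypes overlapping.

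**Figure D3:**
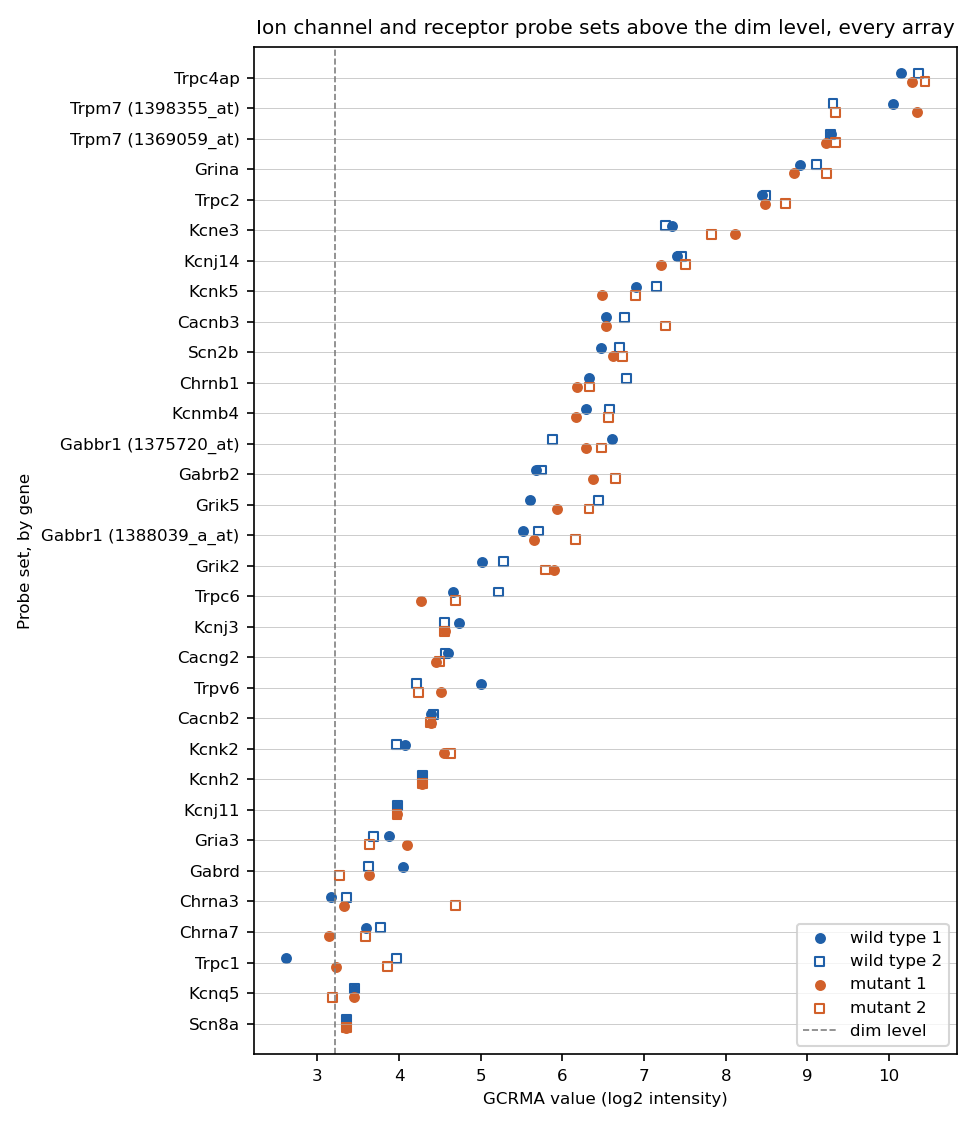
GCRMA value (horizontal axis, log2 intensity) of each of the 32 member probe sets above the dim level (rows, ordered by signal strength), with wild type in blue, mutant in orange, replicate 1 as circles and replicate 2 as open squares. Kcne3, Gabrb2, Grik2 and Kcnk2 have both mutant values above both wild-type values, and Kcnh2 and Scn8a hold 1 value on all arrays.

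The comparison of genotypes asked which members differ between wild type and the Pax6 mutant. No member passed an adjusted p of 0.05 in limma with Benjamini-Hochberg adjustment over all 18625 tested probe sets (0 of 32, lowest adjusted p = 1), and neither did any other probe set (0%). At an unadjusted p under 0.05 there were 4 of 32 members (12.5%), all higher in the mutant, against 3.65% of all tested probe sets in either direction and 1.74% on the higher side. The mutant arrays were both above the wild-type arrays for 4 members (12.5%), against 11.4% of all tested probe sets, and both below for 3 (9.38%), against 11.8%. So the number of members whose genotypes do not overlap was near the background on the values as deposited (21.9%, against 23.2% in either direction). It was 13 (40.6%, against 27.0% of all tested probe sets) after quantile normalization and 14 (43.8%, against 25.8%) after median centring. A separation of at least 1 on the log2 scale was found in 0 members, against 0.0161% higher and 0.156% lower of all tested probe sets. The differences ran from -0.45 (Trpc6) to 0.80 (Gabrb2), with 16 positive, 14 negative and 2 equal to 0, where 48.8% of all tested probe sets were positive and 49.6% negative. The median was 0.01, against 0 over all tested probe sets. A difference above 0.5 was found in 5 members (15.6%), against 2.05% of all tested probe sets, and below -0.5 in 0, against 2.12%. Of these 5, Chrna3 (0.75) overlapped between genotypes and rested on mutant replicate 2. The members are dimmer than most. Among probe sets with a mean under 8, 18.5% of the 27 tested members differed by more than 0.5 on the higher side, against 3.86% of all tested ones. This range does not match brightness: 15 of the 27 members had a mean under 5, against 2594 of the 8540 probe sets.

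The 4 members with an unadjusted p under 0.05 were the same 4 whose mutant arrays were both higher, and they come from different families. Gabrb2 had a mean of 5.71 ± 0.05 (SD, n = 2) in wild type against 6.51 ± 0.19 in mutants, and differed by 0.80 (SE 0.13, 95% interval 0.41 to 1.19, limma adjusted p = 1). Grik2 had 5.15 ± 0.18 (SD, n = 2) and 5.85 ± 0.08, a difference of 0.70 (SE 0.13, interval 0.31 to 1.10). Kcne3 had 7.30 ± 0.06 (SD, n = 2) and 7.97 ± 0.21, a difference of 0.66 (SE 0.14, interval 0.25 to 1.08). On the linear scale these differences are 1.74-fold for Gabrb2, 1.63-fold for Grik2 and 1.58-fold for Kcne3. Kcnk2 had 4.01 ± 0.07 (SD, n = 2) and 4.59 ± 0.05, a difference of 0.58 (SE 0.08, interval 0.32 to 0.83), with a smaller 0.32 once a pseudocount of 16 was added. All 4 missed the adjusted threshold over all probe sets (limma adjusted p = 1) and held 4 distinct values.

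Lower values in the mutant were small or uncertain. Kcnk5 differed by -0.34 (SE 0.20, interval -0.95 to 0.27), or by -0.14 and -0.55 with mutant replicate 1 or 2 left out and -0.22 leaving out wild-type replicate 2. Cacng2 differed by -0.11 (SE 0.07) and Cacnb2 by -0.02 (SE 0.07). Trpc6, with the most negative difference, -0.45 (SE 0.28), overlapped between genotypes. For the strongest signals the intervals were narrow in one probe set of Trpm7, at -0.25 to 0.24 around a difference of -0.0038, and wide in the other, at -1.32 to 1.66 around 0.17. Trpc2 differed by 0.13 (interval -0.23 to 0.50), or by 0.26 and 0.0076 with mutant replicate 1 or 2 left out, and Kcnj14 by -0.07 (interval -0.48 to 0.34).

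**Figure D4:**
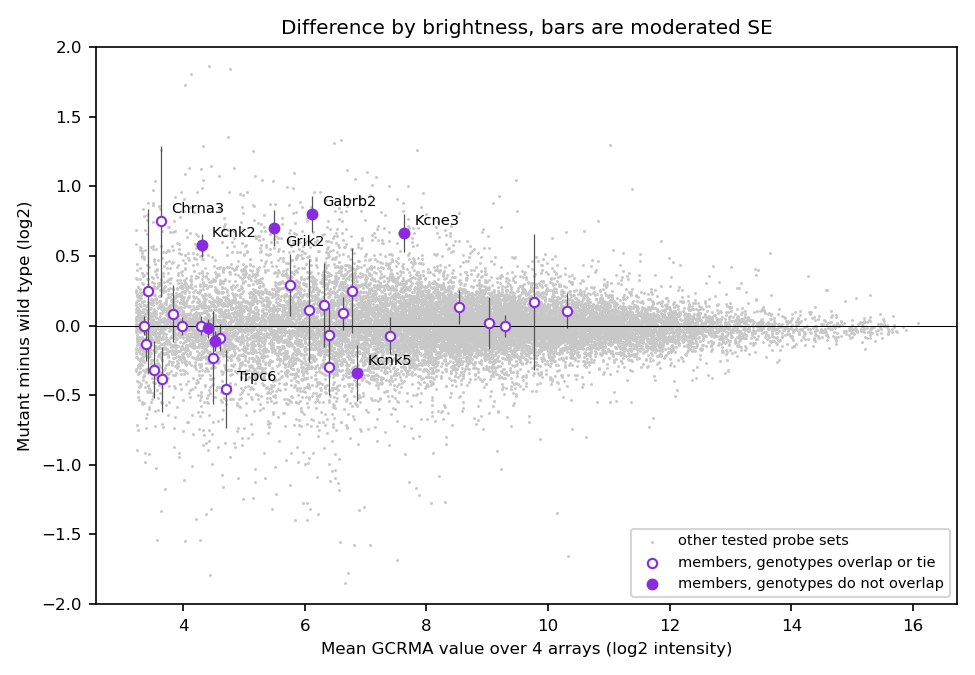
Difference between genotypes (vertical axis, mutant minus wild type, log2) against mean GCRMA value (horizontal axis, log2 intensity) for the 32 tested members (purple, bars are the moderated SE) and other tested probe sets (grey), 10 of which lie outside the plotted range. Filled points are members whose genotypes do not overlap: Gabrb2, Grik2, Kcne3 and Kcnk2 above 0, and Kcnk5, Cacng2 and Cacnb2 below.

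Markers of other cells were compared on the same arrays. In each list 0 markers passed the adjusted threshold, and 48.8% of all tested probe sets were higher in the mutant. All 5 tested erythroid markers were higher in the mutant (median difference 0.43), with a log2 summed level of 15.21 to 15.26 in wild type and 15.46 to 15.47 in the mutant. That sum is mostly Hbe1, at 15.16 to 15.22 in wild type and 15.40 to 15.41 in the mutant. Gata1 had the same value, 4.81, on both wild-type arrays and mutant replicate 2, so its higher mutant mean rested on replicate 1. All 5 endothelial markers were higher too (median 0.25), with summed levels of 11.04 to 11.05 and 11.23 to 11.46. Among them Tek differed by 0.0037. The genotypes overlapped or tied for Tek, Tie1 and Pecam1 and did not overlap for Kdr and Plvap. Of the early neuron markers 4 of 8 tested were higher (median 0.03), with summed levels of 11.62 to 11.77 and 11.67 to 11.82, and Nefl and Snap25 stayed under the dim level on all arrays. Of 8 mesenchyme and pericyte markers 4 were higher (median 0.01, summed levels of 12.88 to 12.91 and 12.56 to 12.84), and of 4 surface ectoderm markers 3 were lower (median -0.64, summed levels of 8.54 to 8.82 and 8.43 to 8.54). Their part in the higher values of Gabrb2, Grik2, Kcne3 and Kcnk2 was not tested. Of the 9 listed neuroepithelium markers the 8 measured were all above the dim level, with Sox2 at 13.51 to 13.86. In the mutant 5 of these were higher and 3 lower (median 0.05). Their summed levels were 15.49 to 15.51 in wild type and 15.61 to 15.65 in the mutant. White blood cell markers Csf1r, Ptprc and Cx3cr1 stayed under the dim level on all arrays. Cd68, also on that list, lay above it at 3.50 to 3.69.

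Some genes were measured by more than 1 probe set. Of 69 genes with several probe sets, 54 had all of them dim, 14 had some above and some under the dim level, and 1, Trpm7, had all above. The 21 dim probe sets of such mixed genes include the second ones of Kcne3, at 2.17 on every array, and of Kcnk2, at 2.08 on every array. The second Gabrb2 probe set read 2.81 and 2.81 in wild type and 2.81 and 3.37 in the mutant, under the dim level on 3 of 4 arrays. It was higher without overlap as well, by 0.28, a difference carried by mutant replicate 2. Grik2 had a single probe set. Trpc2 and Scn2b also had a dim second probe set, at 2.07 on every array and between 2.10 and 2.12. So for Kcne3 and Kcnk2 the higher mutant value rests on 1 probe set, and for Gabrb2 on 1 above the dim level.

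**Figure D5:**
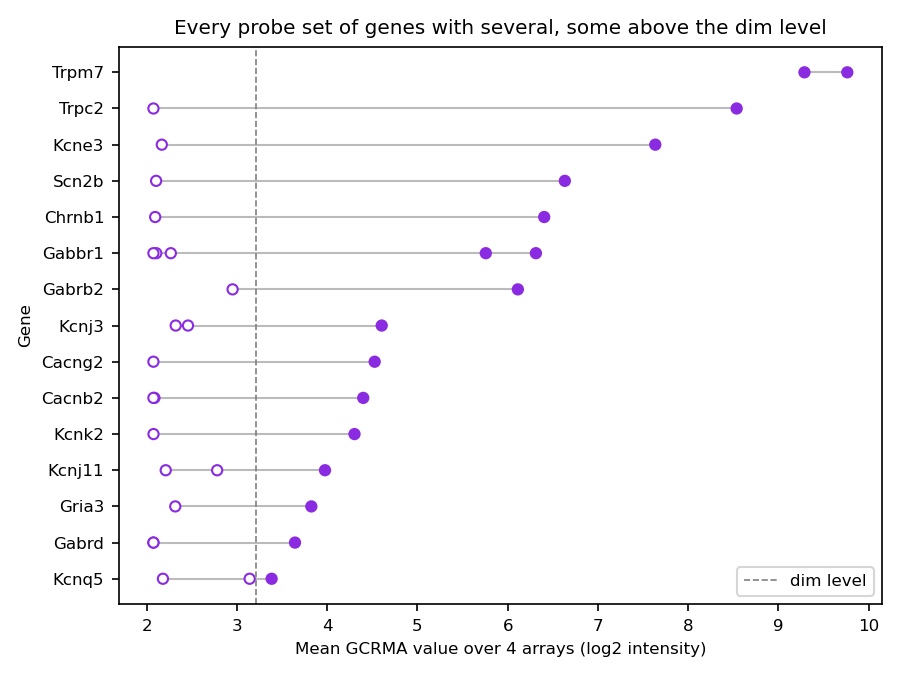
Mean GCRMA value (horizontal axis, log2 intensity) of every probe set of the 15 genes that have several probe sets and at least 1 above the dim level (filled points), with dim ones open. Trpm7 is the 1 gene with all its probe sets above the dashed line at 3.21.

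The promoters of the 4 genes with higher mutant values are shown because all 4 lay higher on both mutant arrays, beside that of Trpm7, whose signal was strong in both genotypes. Each is the 250 bases before a RefSeq transcript start, in assembly GRCr8. Capitals mark E-boxes (CANNTG), the general motif of bHLH factors, which is not specific to proneural ones.
Kcne3 (GRCr8, chr1:163935785-163936034, plus strand): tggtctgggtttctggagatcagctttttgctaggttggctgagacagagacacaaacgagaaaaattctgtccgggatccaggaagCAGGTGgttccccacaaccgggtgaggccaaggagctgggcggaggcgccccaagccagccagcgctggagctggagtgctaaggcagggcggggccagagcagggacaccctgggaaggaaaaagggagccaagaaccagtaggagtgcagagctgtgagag
Gabrb2 (GRCr8, chr10:27439543-27439792, plus strand): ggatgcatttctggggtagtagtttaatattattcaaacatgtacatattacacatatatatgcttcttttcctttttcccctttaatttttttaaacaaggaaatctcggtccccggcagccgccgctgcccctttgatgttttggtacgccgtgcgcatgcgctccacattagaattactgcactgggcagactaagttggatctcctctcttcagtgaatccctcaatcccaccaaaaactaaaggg
Grik2 (GRCr8, chr20:54415284-54415533, minus strand): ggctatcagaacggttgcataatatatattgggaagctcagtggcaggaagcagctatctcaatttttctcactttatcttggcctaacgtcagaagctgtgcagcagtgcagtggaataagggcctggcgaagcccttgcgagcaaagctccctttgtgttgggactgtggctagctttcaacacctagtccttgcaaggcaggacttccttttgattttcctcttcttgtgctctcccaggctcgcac
Kcnk2, upstream start (GRCr8, chr13:103494687-103494936, minus strand): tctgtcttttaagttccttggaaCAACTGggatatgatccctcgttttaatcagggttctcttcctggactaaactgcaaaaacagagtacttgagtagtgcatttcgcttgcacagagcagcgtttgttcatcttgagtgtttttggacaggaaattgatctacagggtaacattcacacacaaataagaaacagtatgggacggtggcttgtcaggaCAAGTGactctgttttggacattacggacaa
Trpm7 (GRCr8, chr3:134588114-134588363, minus strand): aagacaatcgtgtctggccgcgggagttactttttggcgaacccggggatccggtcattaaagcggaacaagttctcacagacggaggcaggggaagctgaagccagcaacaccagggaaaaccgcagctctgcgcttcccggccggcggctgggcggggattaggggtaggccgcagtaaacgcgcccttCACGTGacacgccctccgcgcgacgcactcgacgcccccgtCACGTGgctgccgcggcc

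In these windows Kcne3 held 1 E-box, Gabrb2 and Grik2 held 0, the upstream start of Kcnk2 held 2 and Trpm7 held 2. A second, downstream Kcnk2 start in the table held 0. E-boxes were present in 65.5% of the 33469 promoters of the table and in 63.5% of 156 promoters of 147 matched member genes. All motifs were searched on both strands. The homeodomain core TAATTA was in none of the shown promoters, in 3.21% of member promoters and in 4.86% of all. TTCAGCACC, the left part of the RE1 element bound by the neuronal gene repressor REST, was in 2 of 156 member promoters (1.28%) and 0.305% of all. Both were promoters of dim members, and none of those shown held it. The right part, GGACAGCGC, was in 0 of 156 member promoters and 0.338% of all. None of the motifs overlapped another in the shown windows. The ratio of observed to expected CpG was 1.09 for Trpm7, 0.71 for Gabrb2, 0.69 for the downstream and 0.46 for the upstream Kcnk2 start, 0.34 for Kcne3 and 0.33 for Grik2. It was at least 0.6 in 57.7% of 26 promoters of members above the dim level, 44.6% of 130 promoters of dim members and 33.0% of all.

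Genes of the same physiology outside the symbol rule were mostly dim as well. Of 47 listed genes 42 were measured and 16 tested, with 13 higher and 3 lower, where 48.8% of all tested probe sets were higher. Some of the 13 differed by little, such as Slc12a2 by 0.0065 and the sodium-potassium pump subunit Atp1b1 by 0.0093. In limma 0 of the 16 passed the adjusted threshold. An unadjusted p under 0.05 was found for 2 of the 16, Ryr3 and Kcnip4, against 3.65% of all tested probe sets. Kcnip4 was tested only because of its mutant values. The 6 measured metabotropic glutamate receptors were all dim, as were the GABA-synthesising enzymes Gad1 and Gad2 and the vesicular transporters Slc32a1, Slc17a6 and Slc17a7. The glutamate transporter of radial glia, Slc1a3, was at 7.37 and 7.49 in wild type and 7.17 and 7.20 in the mutant, lower on both mutant arrays by -0.24 (SE 0.08). The chloride importer Slc12a2, which keeps GABA depolarizing in immature cells, was at 10.94 and 11.15 in wild type and 10.87 and 11.23 in the mutant. The chloride exporter Slc12a5 sat at the dim level, between 3.19 and 3.43. The gap junction proteins Gja1 and Gjc1, which couple progenitors, were at 14.08 to 14.20 and 11.97 to 12.11.

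In that list the differences furthest from 0 were those of Ryr3 and Kcnip4, and neither passed the adjusted threshold. Ryr3, a calcium release channel of intracellular stores, was at 3.12 and 4.57 in wild type and 5.54 and 5.84 in the mutant arrays, and differed by 1.84 (SE 0.59, limma unadjusted p = 0.0461, adjusted p = 1). Its wild-type replicates lay further apart than its mutant ones, and wild-type replicate 1 lay under the dim level. Kcnip4, a calcium sensor that binds voltage-gated potassium channels, was at 2.999 and 3.32 in wild type and 4.56 and 5.20 in the mutant arrays, and differed by 1.73 (SE 0.29, limma adjusted p = 1). Its wild-type mean of 3.16 lay under the dim level, so it was tested only because of its mutant values and the size of its difference is uncertain. The other 4 tested genes of calcium stores, Itpr1, Atp2a2, Orai1 and Stim1, differed by -0.06 to 0.09. The Kcnd channels that Kcnip proteins bind stayed under the dim level in both genotypes. Rest itself ran from 4.90 to 5.93, with the wild-type arrays inside the range of the mutant ones.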

How the data were processed

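Per the submitters' processing notes, the authors ran GCRMA, in a version not given in the sources used here. The deposited table has 1 log2 value per probe set and array, a scale inferred from its range. Biotin-labelled cRNA came from 10 µg of total RNA, per the labels' protocols. The table was not normalized again, the filter kept means at or above the 40th percentile, and 57 controls were left out. Gene names came from the platform annotation, and all 304 member probe sets matched the RefSeq table with the same symbol.

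Genotype alone was modelled over 18625 probe sets in limma (lmFit and eBayes; limma 3.58.1 under R 4.3.3), with Benjamini-Hochberg adjustment. Exact permutation of 2 arrays against 2 cannot give a two-sided p under 0.333 and was not used. The procedure was tested on simulated data. The members and lists were chosen with earlier results of these data known. Named were tested genes, each by its probe set of highest mean: those past the threshold, up to 10 higher and 10 lower without overlap, the 10 of highest mean, and the highest of each family, 18 genes in all. Other members named beside them illustrate a family and were chosen after their values were seen. Alternatives were other filters, a pseudocount, normalizations, the replicate block, an intensity trend and leaving out each array. Arrays give no read depth, and their number limits the precision.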

Additional observations from a re-analysis of the deposited data

How the results depend on the processing

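No member passed the adjusted threshold under any of the 12 alternatives (lowest adjusted p over them 0.579, for median centring), and none of the other listed genes did. The count over all probe sets was 1 with the stricter filter at the 60th percentile and 2 each with quantile normalization, median centring and without probe sets holding a repeated value, the last chosen after seeing the data. Tested members numbered 304 with no filter and 7 with the stricter one. Members without overlap numbered 7 (21.9%, against 23.2% of all tested probe sets) on the values as deposited, 11 with no filter (7 higher, 4 lower; 3.62% against 14.9%), 1 with the stricter filter (14.3% against 24.3%), 13 with quantile normalization (40.6% against 27.0%), 14 with median centring (43.8% against 25.8%), and 17 to 19 with 1 array left out (51.5% to 59.4%, against 54.8% to 65.2%), where 3 arrays separate more easily and the lone array is assumed to vary like the others. Without mutant replicate 1, 1 member reached a separation of 1, and 0 with any other array left out. The signs of Gabrb2, Grik2, Kcne3 and Kcnk2 did not turn in any alternative in which they were tested, nor did those of Kcnk5, Cacng2 and Cacnb2. Where genotypes do not overlap, leaving out 1 array cannot turn the sign, so for these genes that step is no test. Of Gabrb2, Grik2, Kcne3 and Kcnk2, only Kcne3 met the stricter filter. With 1 array left out the sign turned for 7 genes, whose differences ran from -0.18 to 0.22 for Grina, -0.025 to 0.20 for Scn2b, -0.31 to 0.53 for Grik5, -0.33 to 0.67 for Trpm7, -0.22 to 0.51 for Gabbr1, -0.22 to 0.075 for Kcnj14 and -0.11 to 0.61 for Cacnb3. Same-numbered arrays deviated together (correlation 0.435 over 18625 probe sets, 0.601 over the 32 members), but the labels name no shared litter or day. With the replicate block 7 members (21.9%) had an unadjusted p under 0.05, against 6.41% of all tested probe sets (4 members, 12.5%, against 3.65% without it), 0 passed the adjusted threshold (lowest adjusted p = 0.736) and the differences were the same.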

Other observations

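Dim members were looked at without the filter for genotypes that do not overlap. Kcnab1, an accessory subunit of voltage-gated potassium channels, read 2.38 and 2.07 in wild type and 2.92 and 2.63 in the mutant arrays, and differed by 0.55 (limma adjusted p = 1) with all values under the dim level. Chrm3, a muscarinic receptor, differed by 0.06 and Kcns1, a silent potassium channel subunit, by -0.01 in the same way. The second Gabrb2 probe set (1369818_at) differed by 0.28, with mutant replicate 2 alone above the dim level. The tested members were higher in replicate 2 than in replicate 1 in both genotypes for 17 of 32 probe sets and lower for 5. The median step was 0.05 in wild type and 0.14 in the mutant, against 0.04 and 0.06 over all tested probe sets.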
